A study of Sus scrofa with 6 samples.

Results

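The genes described here encode the acetylcholine receptor of skeletal muscle and the proteins that assemble it beneath the nerve terminal. They were compared between 2 muscles of the pig. The list held 10 named genes, namely CHRNA1, CHRNB1, CHRND, CHRNE, CHRNG, MUSK, RAPSN, LRP4, DOK7 and COLQ, out of 25973 gene IDs with at least 1 mRNA transcript, of which 19679 passed the expression filter and were tested. In the Sscrofa11.1 annotation 5 of the 10 were found by symbol, 4 by their position on the RefSeq gene, and 1, RAPSN, as a single transcript. CHRND and CHRNG lie under 1 shared gene ID and could not be separated, so that the list gave 8 gene-level units and 1 transcript.

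RNA was taken from longissimus thoracis (LT), a back muscle, and semitendinosus (ST), a hind-limb muscle, of 3 wild-type Min pigs, a Chinese breed, with LT and ST taken from the same animals and paired here by the replicate number of the labels. Both muscles came from untreated pigs of the same age, and no treatment or mutant was part of the design. The study compared the muscles because they differ in meat quality, intramuscular fat among other traits. Ribosomal RNA was removed, 6 strand-specific libraries were sequenced, and expression was given as FPKM (fragments per kilobase of transcript scaled to the mapped fragments of the library), which were summed here over all transcripts of a gene ID.

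At the neuromuscular junction a motor axon releases acetylcholine onto a pentameric ion channel built from α, β, δ and either ε (adult) or γ (fetal) subunits. Agrin from the nerve binds LRP4, which switches on the kinase MuSK. MuSK with its adaptor DOK7 then drives the scaffold protein rapsyn to cluster the receptors, and ColQ anchors acetylcholinesterase in the synaptic cleft. The genes are read mainly in the few fibre nuclei beneath the nerve ending, and several are read along the whole fibre when its nerve is lost. In whole muscle, fewer cells of a type and less RNA per cell cannot be told apart.

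The files hold no read counts, so that the depth behind each value is unknown and no counting interval is given. FPKM summed to 376461 to 404473 per library, and 35623 to 37657 transcripts were above 0.1 FPKM. Mitochondrial transcripts took 5.35 to 8.15% of the sum in LT and 12.1 to 15.4% in ST. Of 7 skeletal muscle fibre markers 6 were matched, and they summed to 8539 to 11007 FPKM in every library. Each library was thus borne out as skeletal muscle, but the sum of these markers overlapped between LT and ST. Of the 6 markers, 1 was higher and 1 lower in ST without overlap, against 16.7% and 8.16% of all genes tested. ST replicate 2 stood apart from the other ST libraries: the summed FPKM of 7 slow-fibre markers was 7001 there against 40537 and 41906 in ST replicates 1 and 3 and 4986 to 7416 in LT. Results that this library decided are also given without it.

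CHRNA1 was the member with the largest difference between muscles and the only one whose ST libraries all lay above all LT libraries. It encodes the α subunit, which carries the acetylcholine binding site and is shared by the fetal and the adult receptor (ENSSSCG00000015969, chromosome 15, 80673033 to 80692208, minus strand). Its summed FPKM was 1.87, 2.61 and 2.27 in LT replicates 1 to 3 and 8.11, 3.11 and 7.82 in ST replicates 1 to 3. ST replicates 1 and 3 were far above LT, whereas ST replicate 2 lay just above the highest LT library. The means were 2.25 ± 0.371 in LT and 6.35 ± 2.81 in ST (SD, n = 3), a 2.82-fold ratio, with ST higher in 3 of 3 pigs.

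The log2 fold change of CHRNA1 on the log2(FPKM + 0.1) scale was 1.35 (SE 0.37, 95% interval 0.51 to 2.19). It did not pass the adjusted threshold (limma, p = 0.006, Benjamini-Hochberg adjusted p = 0.111 over all genes tested), and the 2-sided exact permutation test gave p = 0.1, the smallest that 3 against 3 allows. Without ST replicate 2 the log2 fold change was 1.79 with an adjusted p of 0.00714 from limma, so that the gene was then called higher in ST. This library held the lowest CHRNA1 value of ST, so that leaving it out raises the difference and the call is no separate support. With any other single library left out, the adjusted p of CHRNA1 from limma was 0.214 to 0.280. A call requires an adjusted p under 0.05 and a log2 fold change beyond 1.

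Of the 8 members tested, 0 were called with all libraries by limma, where 0.579% of all genes tested were called (0.412% higher in ST). Of the 114 genes called, 71.1% were higher in ST, a share that was 53.2% after quantile normalization and 83.7% after rescaling to nuclear transcripts. At an unadjusted p under 0.05 the count was 1 of 8, against 19.0% of all genes. Non-overlapping groups were found for 1 of 8 members, again CHRNA1, against 24.8% of all genes (16.7% with ST higher and 8.16% with ST lower). The members' share was thus near or below that of genes at large. Without ST replicate 2, CHRNA1 was the only 1 of the 8 called, where 5.15% of 19539 genes were called (3.34% higher in ST). With pigs as blocks 0 members were called, against 4.26% of all genes (2.95% higher in ST), and the adjusted p of CHRNA1 from limma was 0.0712.

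**Figure D1:**
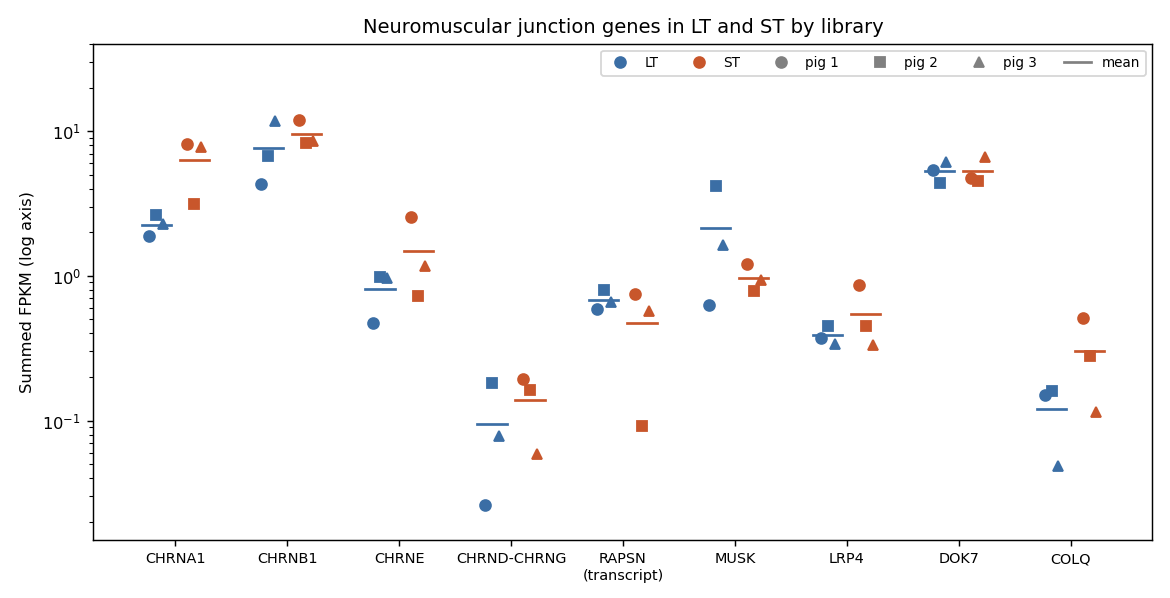
Summed FPKM of each member in each library (log axis), with LT in blue and ST in orange, a marker shape for each pig and a horizontal line at the mean of each muscle (n = 3). CHRNA1 is the only member without overlap: LT lies between 1.87 and 2.61 and ST between 3.11 and 8.11. RAPSN is shown as its single transcript.

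CHRNB1, which encodes the β subunit, was read at the highest level of the 8 units in both muscles (ENSSSCG00000051794, chromosome 12, 52742098 to 52759676, plus strand). Its FPKM was 4.30, 6.75 and 11.8 in LT replicates 1 to 3 and 11.9, 8.23 and 8.60 in ST replicates 1 to 3. The groups overlapped, since LT replicate 3 was nearly as high as the highest ST library, and ST was higher in 2 of 3 pigs. This gave a log2 fold change of 0.43 (95% interval −0.38 to 1.23, limma adjusted p = 0.549). The gene ID also takes in 3 transcripts over the neighbours FGF11 and TMEM102, and without them the log2 fold change was 0.44 (limma adjusted p = 0.555).

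CHRNE encodes the ε subunit, which replaces γ in the adult receptor (ENSSSCG00000017909, chromosome 12, 52011250 to 52016301, plus strand). This gene ID was found by symbol, but it overlapped the RefSeq span of CHRNE by only 29.6%, below the 30% asked of matches by position. FPKM was 0.471, 0.977 and 0.966 in LT replicates 1 to 3 and 2.56, 0.728 and 1.17 in ST replicates 1 to 3. ST replicate 1 was the high library, and ST replicate 2 lay inside the LT range. ST exceeded LT by a log2 fold change of 0.70 (95% interval −0.35 to 1.74, limma adjusted p = 0.444). Without ST replicate 2 it was 1.08 (limma adjusted p = 0.176), without ST replicate 1 it was 0.24 (adjusted p = 0.821) and without LT replicate 1 it was 0.39 (adjusted p = 0.740), so that CHRNE was not called in any of these fits.

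The δ and γ subunits are encoded side by side by CHRND and CHRNG, and the annotation joins them in 1 gene ID (ENSSSCG00000016288, chromosome 15, 133040340 to 133058544, plus strand). All of its signal came from a transcript of 24 exons and 7689 bases that runs through both genes. The joint FPKM was 0.0262, 0.181 and 0.0779 in LT replicates 1 to 3 and 0.195, 0.162 and 0.0591 in ST replicates 1 to 3. The muscles overlapped at this low level, and the log2 fold change was 0.32 (95% interval −0.61 to 1.25, limma adjusted p = 0.709). A value near the pseudocount of 0.1 understates a ratio on this scale. The share of fetal γ in the sum of γ and ε could not be computed, because no value of CHRNG alone was at hand.

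The subunit genes were therefore listed at unequal FPKM. CHRND-CHRNG is scaled to the length of a transcript through both genes. Its value is thus not the level of δ or γ alone. In ST the order by mean FPKM, a scale corrected for length, was CHRNB1 (9.57), CHRNA1 (6.35), CHRNE (1.49) and CHRND-CHRNG (0.139), and each neighbouring pair in this order was free of overlap between its libraries. In LT the order was the same, with CHRNB1 at 7.62, CHRNA1 at 2.25, CHRNE at 0.805 and CHRND-CHRNG at 0.0949, again without overlap between neighbours. The assembled receptor holds more α than β subunits, yet the FPKM of CHRNA1 over that of CHRNB1 was below 1 in every library, at 0.435, 0.387 and 0.192 in LT and 0.683, 0.378 and 0.909 in ST. This ratio is free of library scaling, and its groups overlapped at ST replicate 2. CHRNA1 over CHRNE was 2.998 ± 0.860 in LT and 4.72 ± 1.81 in ST (SD, n = 3), also with overlap.

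LRP4, the receptor for agrin, was low in both muscles (ENSSSCG00000013248, chromosome 2, 15616131 to 15672874, plus strand). FPKM was 0.371, 0.453 and 0.338 in LT replicates 1 to 3 and 0.868, 0.449 and 0.330 in ST replicates 1 to 3. ST replicate 1 was the single high library, and the other ST libraries lay at the LT level. Its log2 fold change of 0.33 was not called (95% interval −0.45 to 1.12, limma adjusted p = 0.640).

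MUSK, the kinase that LRP4 activates, was the tested member with the lowest ST to LT log2 fold change (ENSSSCG00000005456, chromosome 1, 251650710 to 251756608, plus strand). FPKM was 0.631, 4.15 and 1.63 in LT replicates 1 to 3 and 1.20, 0.781 and 0.937 in ST replicates 1 to 3. LT replicate 2 was the high library and LT replicate 1 the lowest of all, so that the ST libraries lay within the LT range. The log2 fold change was −0.73 (SE 0.56, 95% interval −2.02 to 0.57, limma adjusted p = 0.527). Without LT replicate 2 it was −0.09. In LT replicate 2, 5 Schwann cell markers also summed to a high 41.5 FPKM, against 24.2 and 23.0 in the other LT libraries. ST replicate 2 was nearly as high for these markers, at 39.5, and held the lowest MUSK value of ST. The part of nerve tissue in the value of MUSK was not tested.

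DOK7, the adaptor that MuSK needs for its activity, was the member with the least difference (ENSSSCG00000008702, chromosome 8, 2089670 to 2122685, plus strand). FPKM was 5.42, 4.37 and 6.08 in LT replicates 1 to 3 and 4.78, 4.51 and 6.58 in ST replicates 1 to 3. Both means were 5.29, with an SD of 0.859 in LT and 1.12 in ST. The log2 fold change was −0.01, and its 95% interval of −0.51 to 0.50 was the narrowest among the members (limma adjusted p = 0.989). After rescaling to nuclear transcripts the log2 fold change of DOK7 had the other sign, at 0.10. DOK7 was read above MUSK in every library, and MUSK over DOK7 lay between 0.116 and 0.949 (LT) and between 0.142 and 0.252 (ST).

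RAPSN encodes rapsyn, which binds the receptor from inside the cell and holds it in clusters. Its gene ID also spans PSMC3, a proteasome subunit gene, and so only the transcript on RAPSN itself was used (ENSSSCT00000025570, 8 exons, chromosome 2, 15167921 to 15181009, plus strand). FPKM was 0.594, 0.792 and 0.659 in LT replicates 1 to 3 and 0.749, 0.0919 and 0.571 in ST replicates 1 to 3. ST replicate 2 was the low library, and the rest of ST lay at the LT level. The log2 fold change was −0.70 (95% interval −2.13 to 0.73) with an adjusted p of 0.724 from limma over 52102 transcripts. Without ST replicate 2 it was −0.04. RAPSN and LRP4 lie on the same strand of chromosome 2, with 435121 bases between them.

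COLQ encodes the collagen tail that fixes acetylcholinesterase to the basal lamina (ENSSSCG00000028911, chromosome 13, 2677739 to 2755331, minus strand). FPKM was 0.150, 0.161 and 0.0481 in LT replicates 1 to 3 and 0.513, 0.278 and 0.115 in ST replicates 1 to 3. ST was higher in 3 of 3 pigs, although the lowest ST library lay below the 2 highest of LT. The log2 fold change was 0.79 (95% interval −0.22 to 1.80, limma adjusted p = 0.372). With pigs as blocks the 95% interval was 0.06 to 1.51 and the adjusted p from limma was 0.171.

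The postsynaptic genes thus had no common direction. The log2 fold change was above 0 for 6 of 8 units, against 61.0% of all genes, and within 1 of 0 for 7 of 8, against 91.6%. The median over the 8 units was 0.38, beside 0.13 over all genes tested. CHRNA1 and COLQ were higher in ST in all 3 pigs, and 0 members were lower in all 3. ST replicate 1 was the highest library for 6 of the 8 units and LT replicate 1 the lowest for 5, both of them from pig 1. The shares of all genes for these counts by pig and by library were not computed. The counts can thus not be read as particular to the members.

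**Figure D2:**
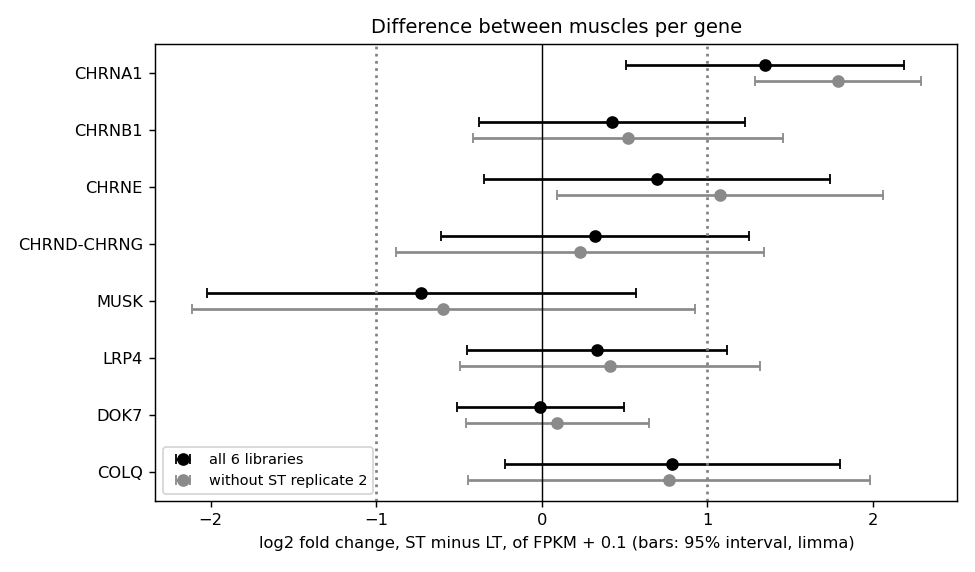
Log2 fold change of each gene-level unit, ST minus LT, from limma on log2(FPKM + 0.1), with 95% intervals, for all 6 libraries (black) and without ST replicate 2 (grey). The dotted lines mark a log2 fold change of 1 in each direction. CHRNA1 moves from 1.35 to 1.79, and the intervals of MUSK, LRP4, DOK7, COLQ, CHRNB1 and CHRND-CHRNG span 0 in both fits.

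The order of the members by mean FPKM showed where neighbours could be told apart. In LT, CHRNB1 and DOK7 overlapped at the top, DOK7 lay above CHRNA1 without overlap, and CHRNA1, MUSK and CHRNE overlapped in turn. CHRNE lay above LRP4 and LRP4 above COLQ without overlap, and COLQ and CHRND-CHRNG overlapped at the bottom. In ST, CHRNA1 took the place below CHRNB1, overlapping DOK7 at 5.29. MUSK stood below CHRNE in ST, with overlapping libraries, and above LRP4, also with overlap. Mean levels at or below 1 FPKM thus belonged to CHRNE, LRP4, COLQ, CHRND-CHRNG and the RAPSN transcript in LT, and to MUSK, LRP4, COLQ, CHRND-CHRNG and the RAPSN transcript in ST.

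Of 24 transcripts listed for the members, 18 were tested and 0 were called by limma, where 0.146% of 52102 transcripts were called. At an unadjusted p under 0.05 the count was 2, against 9.69% of all transcripts. A further 5 transcripts were listed at 0 in all libraries. CHRNA1 was carried entirely by ENSSSCT00000017388, with 9 exons and 3708 bases, whose values are those given above for the gene. The other 2 transcripts of CHRNA1 were listed at 0 throughout.

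LRP4 was listed with a different transcript in different libraries. The transcript of 38 exons and 8090 bases (ENSSSCT00000014468) had 0.371, 0.0282 and 0 FPKM in LT replicates 1 to 3 and 0.868, 0.449 and 0.330 in ST. The transcript of 37 exons and 8327 bases (ENSSSCT00000057167) had 0, 0.425 and 0.338 FPKM in LT and was listed at 0 in all 3 ST libraries. The first held 100% of LRP4 in every ST library and in LT replicate 1, but 6.22% in LT replicate 2 and 0% in LT replicate 3. Neither difference passed the adjusted threshold in limma, with a log2 fold change of 1.75 and adjusted p = 0.4995 for the first and −1.51 and adjusted p = 0.533 for the second. Near-identical transcripts share most of their fragments, and how these were assigned at such low levels was not tested.

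CHRNB1 was carried in 5 of the 6 libraries by ENSSSCT00000029953, with 11 exons and 2576 bases, at 77.8 to 81.5% of the sum. In LT replicate 1 this transcript held 22.1%, at 0.949 FPKM. There the largest share, 41.1%, belonged to ENSSSCT00000069185 (10 exons, 1.77 FPKM), and 26.4% went to a 12-exon transcript that reaches into FGF11 (ENSSSCT00000037685, 1.13 FPKM), which was listed at 0 in the other 5 libraries. The low sum of CHRNB1 in LT replicate 1 came with this other split, and the part of the split in it was not tested.

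For MUSK, ENSSSCT00000006001 held 61.0 to 85.8% of the sum in LT and 75.6 to 79.9% in ST, and most of the high value of LT replicate 2 was its 3.53 FPKM. DOK7 was carried mainly by ENSSSCT00000030203, at 52.7 to 97.5% of the sum. The longer DOK7 transcript, ENSSSCT00000075510 with 5839 bases, held 47.3% in LT replicate 2 and 19.1% in ST replicate 2, both from pig 2, and 2.49 to 13.4% elsewhere. The sums of DOK7 nevertheless stayed within 4.37 to 6.58 FPKM in all 6 libraries.

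**Figure D3:**
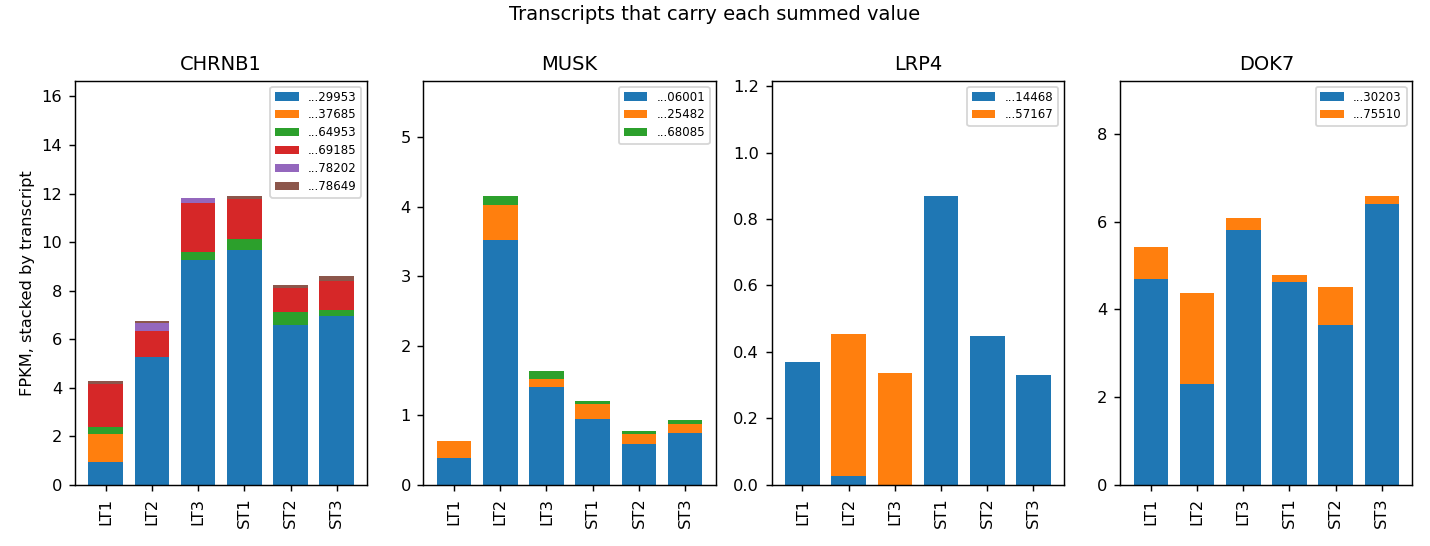
FPKM of the transcripts of CHRNB1, MUSK, LRP4 and DOK7 stacked in each library (linear axes from 0, with a scale of its own for each gene). LRP4 is listed with ENSSSCT00000057167 in LT replicates 2 and 3 and with ENSSSCT00000014468 in all ST libraries, whereas the leading transcript of DOK7 is the same in all 6.

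Within the members' spans 16 transcripts without an Ensembl ID were also listed, and all 16 lay on the opposite strand. They comprised 9 intronic lncRNAs, 1 antisense lncRNA and 6 mRNAs that were assembled from the reads. The highest was Novel_007898 at DOK7, with 0.359, 0.372 and 0.792 FPKM in LT and 0.476, 0.337 and 0.637 in ST. The rest stayed below 0.792 FPKM in every library. The libraries were strand-specific, and these transcripts were not added to the members' sums.

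Fibre markers separated the ST libraries in the same way as CHRNA1, but not the LT libraries, where LT replicate 1 had the highest slow-fibre sum (7416) and the lowest CHRNA1. MYH7, the slow myosin heavy chain, had 614, 530 and 696 FPKM in LT and 3582, 1014 and 4682 in ST, so that ST replicate 2 was the lowest ST library for MYH7 as for CHRNA1. Slow-fibre markers had a log2 fold change above 0 for 7 of 7 genes, with a median of 2.08, although 0 were called by limma with all libraries and 7 had an unadjusted p under 0.05. Without ST replicate 2, which was set apart above by these same markers, the median was 2.75. In that fit 7 of 7 were called higher by limma, against 3.34% of 19539 genes. Leaving out a library for its low values of these genes raises their difference, so that these calls are no separate support. The 4 matched fast-fibre markers summed to 20314 to 27030 FPKM in LT and to 4291, 18180 and 1058 in ST replicates 1 to 3. The part of fibre type in the values of CHRNA1 was not tested.

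Markers of other cells in the muscle were set beside the members. The 4 endothelial markers summed to 71.0, 47.1 and 54.9 FPKM in LT and to 164, 113 and 128 in ST, where PECAM1 and CDH5 were called higher by limma (log2 fold change 1.39, adjusted p = 0.0424, and 1.22, adjusted p = 0.0399). The 5 Schwann cell markers summed to 23.0 to 41.5 in LT and 24.8 to 39.5 in ST, with 0 of 5 called. CHAT and SLC18A3, which mark cholinergic neurons, were listed at 0 in all libraries, and 6 neuronal markers summed to 0.0719 to 0.331. Satellite cell markers (4 of 4) summed to 8.49 to 13.7 in LT and 7.34 to 9.99 in ST. Adipocyte markers (5 of 5) summed to 65.2 to 180 in LT and 47.3 to 148 in ST, fibroblast markers (5 of 5) to 571 to 1177 and 610 to 1111, and leukocyte markers (5 of 5) to 29.2 to 34.6 and 26.5 to 60.2. The part of these cells in the members' values was not tested.

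**Figure D4:**
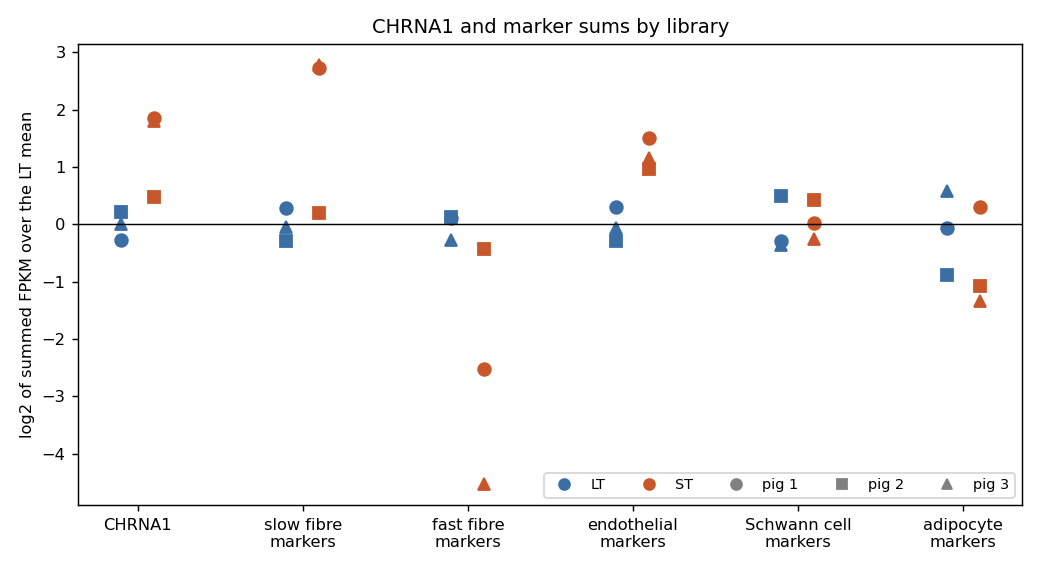
Log2 of the summed FPKM of CHRNA1 and of the marker lists in each library, relative to the LT mean (0), with LT in blue, ST in orange and a marker shape for each pig. ST replicate 2 (orange square) is nearest to LT among the ST libraries for CHRNA1, the slow-fibre, the fast-fibre and the endothelial markers. The endothelial markers of all 3 ST libraries (113 to 164 FPKM) lie above those of all LT libraries (47.1 to 71.0 FPKM).

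Other genes of the synapse were followed in 7 lists of 72 genes, of which 68 were matched and 61 tested. By limma without a block, 0 were called in either direction with all libraries. With pigs as blocks 4 were called, against 4.26% of all genes. An unadjusted p under 0.05 was found for 9 genes with ST higher, against 13.1% of all genes, and for 2 with ST lower, against 5.88%. The median log2 fold change over the 61 genes was 0.18. Genes of fibre membrane excitation, which carry the signal from the receptor along the fibre, had 0 of 4 tested genes called, 0 at an unadjusted p under 0.05, and a median of 0.04.

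Upstream of LRP4 and MuSK, the synaptic basal lamina list had 0 of 7 genes called and a median log2 fold change of 0.12. AGRN, which encodes the agrin that LRP4 binds, had 2.23, 1.62 and 1.59 FPKM in LT and 4.54, 2.94 and 2.63 in ST. All ST libraries lay above all LT libraries, with a log2 fold change of 0.84 (limma adjusted p = 0.146). AGRN is also read in cells other than motor neurons, and its source was not measured. LAMA4, a laminin chain of vessels and synapses, and NID2, which links laminin to collagen, overlapped between muscles, with log2 fold changes of 0.31 (adjusted p = 0.697) and 0.24 (adjusted p = 0.620) in limma.

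Downstream of MuSK, 0 of 16 signalling genes were called, 4 were higher at an unadjusted p under 0.05, and the median was 0.26. DVL1, a dishevelled protein that binds MuSK, had 53.0, 42.9 and 45.0 FPKM in LT and 78.1, 72.9 and 87.6 in ST, without overlap (log2 fold change 0.76, limma adjusted p = 0.0829). The kinases FYN and ABL2 were likewise free of overlap, with log2 fold changes of 0.66 (adjusted p = 0.172) and 0.56 (adjusted p = 0.169) in limma. In the neuregulin and synaptic transcription list 0 of 8 tested genes were called, with a median of 0.31. ERBB4, a neuregulin receptor, had 1.64, 0.976 and 1.10 FPKM in LT and 3.48, 2.94 and 2.94 in ST. Its log2 fold change was 1.30 (SE 0.24, limma adjusted p = 0.060), and with pigs as blocks it was called, with an adjusted p of 0.0255, as it was without ST replicate 2, at 0.0357. ERBIN, which binds ErbB receptors, and ETV5, a factor of synaptic transcription, had log2 fold changes of 0.53 (adjusted p = 0.301) and 0.50 (adjusted p = 0.355) in limma.

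The complex that links the fibre to its basal lamina had 0 of 7 genes called and a median of −0.15. UTRN, whose product utrophin lies at the synapse, had 12.3, 12.1 and 16.6 FPKM in LT and 24.2, 19.1 and 24.9 in ST (log2 fold change 0.73, limma adjusted p = 0.112). DMD, whose product dystrophin lines the fibre, had 45.9, 55.5 and 49.4 FPKM in LT and 34.6, 41.2 and 29.8 in ST (log2 fold change −0.52, limma adjusted p = 0.188). Both were free of overlap, with ST on the higher side for UTRN and on the lower side for DMD, and neither was called. SNTB1, a syntrophin, had a log2 fold change of −1.003 (limma adjusted p = 0.365) and was called lower with pigs as blocks (adjusted p = 0.0280).

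Genes of the denervation response had 0 of 15 called and a median of 0.19, 1 being higher and 1 lower at an unadjusted p under 0.05. The list was not sorted by the direction that each gene takes after nerve loss, so that its median is no measure of denervation. HDAC9, a histone deacetylase that represses activity-dependent genes of muscle, had 3.27, 2.35 and 4.01 FPKM in LT and 9.56, 4.34 and 8.11 in ST (log2 fold change 1.12, limma adjusted p = 0.126). It was called higher by limma with pigs as blocks (adjusted p = 0.0311) and without ST replicate 2, its lowest ST library (adjusted p = 0.0241). MYH8, a perinatal myosin heavy chain, had 54.8, 54.5 and 54.1 FPKM in LT and 10.4, 65.0 and 4.31 in ST, where ST replicate 2 was the highest of all libraries. The gene ID of MYH8 also covers another RefSeq gene, LOC110255887, so that these values may not be of MYH8 alone. The log2 fold change of this gene ID was −1.92 (limma adjusted p = 0.257) and −3.001 without ST replicate 2 (adjusted p = 0.00585), but −1.06 without ST replicate 3 (adjusted p = 0.512). MYF6, a myogenic factor, had 152 to 289 FPKM in LT and 157 to 707 in ST (log2 fold change 0.89, limma adjusted p = 0.401), and its log2 fold change was 0.41 without ST replicate 2 and 1.49 without ST replicate 3. MYOG, chosen here after its values were seen because it acts on the receptor genes, had 17.1, 40.6 and 39.5 FPKM in LT and 21.2, 15.3 and 20.2 in ST (log2 fold change −0.69, limma adjusted p = 0.318).

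The other nicotinic receptor subunits, which serve mostly in neurons, were mostly near 0, and 4 of 10 matched genes passed the filter. CHRNA10 had 0.269 to 0.589 FPKM in the 6 libraries. The highest values were those of CHRNA9, an α subunit known from hair cells, with 0.280, 0.939 and 0.0881 FPKM in LT and 2.66, 3.93 and 10.7 in ST. The groups did not overlap, the log2 fold change was 3.55 (SE 0.68), and the adjusted p from limma was 0.0634. With pigs as blocks it was called higher (adjusted p = 0.0360), as it was without ST replicate 2 (adjusted p = 0.0415). The FPKM of CHRNA9 exceeded that of CHRNA1 in ST replicates 2 and 3.

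**Figure D5:**
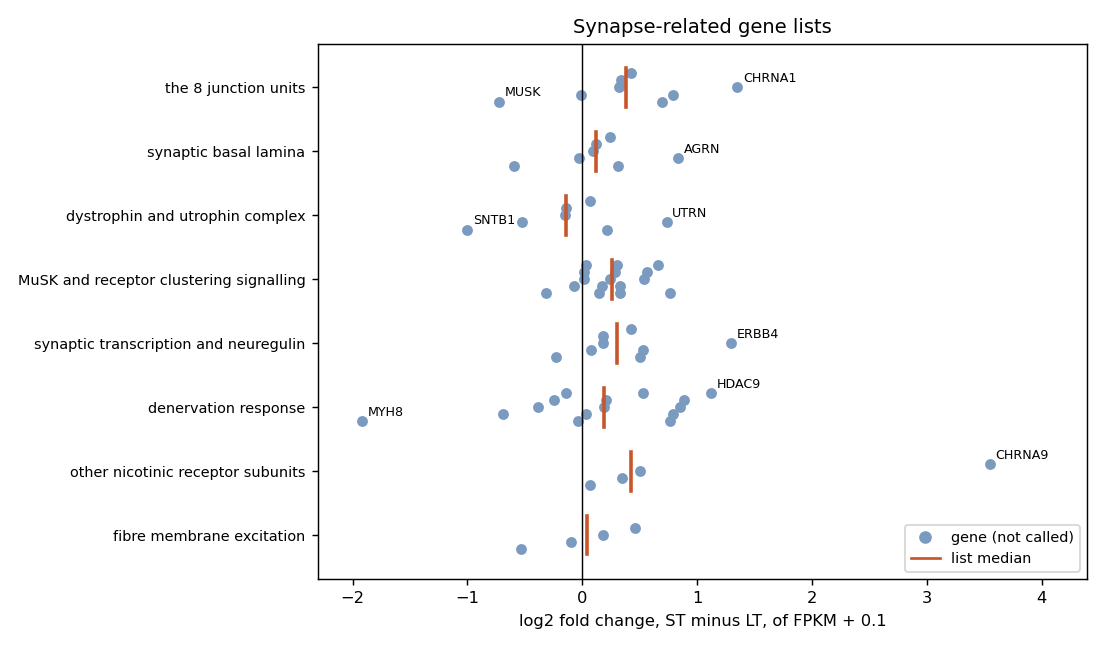
Log2 fold change, ST minus LT, of the 8 gene-level units and of each tested gene in the 7 lists, 1 point a gene, with an orange bar at the median of each list. No gene was called in this fit, which had no block for pigs, and CHRNA9 (3.55) and MYH8 (−1.92) lie farthest from 0.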

How the data were processed

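FPKM per transcript were deposited by the authors for 6 libraries (3 LT, 3 ST). Per the study's methods, reads were filtered with SOAPnuke, mapped to Sus scrofa 11.1 with HISAT2 and assembled with StringTie. FPKM are scaled to each library, so that a large share of few genes lowers the rest. The values hold no counts, and depth is unknown.

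FPKM were summed over all transcripts of a gene ID (72511 transcripts). Genes not found by symbol were matched to RefSeq spans of the same build by position (at least 30% overlap). Of the 68 matched genes of the synapse lists, 11 had a gene ID that also covers another RefSeq gene, ERBIN and MYH8 among those named. The same holds for MYH7 and PECAM1 among the markers. Gene IDs with a sum above 0.1 in at least 1 library were tested with limma 3.58.1 in R 4.3.3 (variance trend) on log2(FPKM + 0.1), without a block, since the study names none for its test although both muscles came from the same pigs. Genes were called at a Benjamini-Hochberg adjusted p under 0.05 and a log2 fold change beyond 1, with the fit tested on simulated data. Single values had 2-sided exact permutation tests. LT and ST came from the same pigs per the study's methods. That libraries of 1 number share a pig was taken from the sample titles, and their deviations from the muscle means correlated at 0.276 to 0.303 within pigs and −0.199 to −0.116 between pigs. The deviations of the 3 libraries of a muscle cancel out for each gene. Negative values between pigs thus follow from positive ones within pigs and are no separate support for the pairing. The planned share of CHRNG in CHRNG plus CHRNE could not be computed. All members were named; of each pathway list the called genes were named, or else up to 3 with the largest absolute log2 fold change and a mean FPKM above 1, except for the fibre membrane excitation list, which is given by its counts alone. MYOG, CHRNA10, MYH7, CHAT, SLC18A3, PECAM1 and CDH5 were singled out after their values were seen. Some results for genes of the lists are not reported here. Members and lists were chosen with earlier results of these data known. Alternatives covered the pseudocount, filter, scaling, variance trend, block, transcript choice and each library left out.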

Additional observations from a re-analysis of the deposited data

How the results depend on the processing

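Depth is unknown, and members near 0.1 FPKM depend on the pseudocount. The number of members called by limma was 0 under each alternative other than leaving out ST replicate 2, where it was 1 (range 0 to 1 with a library left out), and the number of member transcripts called was 0 throughout. The pathway genes called (0 in the report) numbered 1 with a sum above 1 in at least 3 libraries, 2 after rescaling to nuclear transcripts, and 0 to 4 with a library left out, 4 without ST replicate 2. All genes called (114 in the report) numbered 6 with no filter, 62 after quantile normalization, 343 after rescaling to nuclear transcripts, 31 without the variance trend, and 11 to 1006 with a library left out, 1006 without ST replicate 2.

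With the replicate block of pigs, 4 pathway genes and 838 genes were called, and members higher in ST in all pigs numbered 2 against 1 without overlap (1 to 2 with a library left out). The share of all genes higher in ST in all pigs was not computed. The block changed no call of a member. No paired value was possible for the share of CHRNG because CHRND and CHRNG share 1 gene ID.

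The median log2 fold change of all genes was −0.01 after quantile normalization and 0.22 after rescaling to nuclear transcripts. CHRNA1 ranged from 1.10 to 1.79 (limma adjusted p 0.00714 to 0.280) over its alternatives. DOK7 reversed, to 0.10 after rescaling to nuclear transcripts, and ranged from −0.17 to 0.10 with a library left out. LAMA4 ranged from −0.012 to 0.63 with a library left out, the lowest without ST replicate 1. MUSK ranged from −1.36 to −0.09 with a library left out, the highest without LT replicate 2. COLQ ranged from 0.21 to 1.19. Leaving out the transcripts over the neighbours of CHRNB1, chosen after seeing the data, gave 0.44. Of 456 single log2 fold changes over the alternatives, 438 kept their direction and side of the threshold.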
